A study of Mus musculus with 16 samples.

Results

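Cas9 control clones are cells that received the Cas9 nuclease but no guide RNA and were then grown from single isolates. This comparison sets 1 such clone, called e4, against the other, called e1, both derived from mHiPPoE-2. That line was established by transforming hippocampal neurons of the mouse strain Crl:CFW(SW)-024. Each clone gave 2 libraries of ribodepleted total RNA, which makes 4 of the 16 samples of the series. The names e1 and e4 are those of the count columns; which of them the labels call clone 1 is not settled, and the 4 columns were taken as the controls because every other column name matches another group. The other groups are the unedited cells (WT, 2 libraries, also used here as a reference), a METTL3 KO of 1 clonal isolate, 2 RBM45 KO clones and 2 KO rescue clones in which F-HA-tagged RBM45_mut[delta]gRNA was put back into RBM45 KO cells. All cells grew without treatment in the same medium. Genes were taken from the whole gene table with chromosomes X and Y left out, which left 49223 of 53333 rows, and 15750 autosomal genes passed the filter on low counts.

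Cas9 cuts DNA only where a guide RNA directs it, so a clone without a guide serves as the reference for edited clones. A clone carries forward the chromosome set and the active and silent genes of the cell that founded it. Silent genes are often marked by methylation of CG dinucleotides in their promoters, a mark that is copied at cell division. Established transformed lines commonly hold cells that differ in chromosome number. These points are background; neither DNA copy number nor DNA methylation was measured here.

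Gene-table totals were 18751324 and 17302594 counts for e1 and 12464922 and 15383311 counts for e4, and 12 genes took 58.6% to 69.6% of them. The labelled neuron type was checked against its markers in the 4 control and 2 unedited libraries. Of 7 neuronal markers, Nefl and Stmn2 had no count in the control clones, Rbfox3 and Snap25 had 1 each, and Tubb3 lay at 0.499 to 1.30 CPM (counts scaled to a common library size). Syt1 stayed below Map2 as well, at 0.0623 to 0.720 CPM, and Map2, at 39.7 to 138 CPM, was the highest of the 7. Map2, Syt1, Rbfox3, Nefl and Snap25 are each overlapped by a gene on the other strand, whose reads cannot be told apart. The progenitor markers Nes (210 to 328 CPM) and Sox2 (19.4 to 33.3 CPM) were high in all 6 libraries. So were the mesenchymal markers Vim (603 to 1059 CPM) and Acta2 (271 to 792 CPM). The other mesenchymal markers differed between the lines. Col1a1 ranged from 29.2 to 1055 CPM, and Twist1 was low, from 0 CPM in both e4 libraries to 2.82 CPM in e1. Aqp4 of astrocytes and Cdh1 and Epcam of epithelium had no count. The microglial genes Cx3cr1 (31.9 to 52.5 CPM) and Csf1r (3.55 to 6.33 CPM), both overlapped by a gene on the other strand, were listed with counts. The other microglial markers, Aif1 (0.0522 to 0.272 CPM) and P2ry12 (0 to 0.699 CPM), lay near 0. Of the 7 neuronal markers, then, 6 were at or below 1.30 CPM in every one of these libraries.

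A large part of the transcriptome differed between the control clones. Of 15750 autosomal genes, 3084 (19.6%) passed an adjusted p of 0.05 in edgeR's quasi-likelihood test, 1548 of them higher in e4 (9.83%) and 1536 lower (9.75%). In 1161 genes (7.37%) the log2 difference was also at least 1, that is 2-fold, and of those differing by at least 8-fold 84 were higher and 112 lower in e4. Protein-coding genes passed more often (22.6% of 11127) than lincRNAs (13.5% of 394). The test measures the spread between replicate libraries, and nothing in the labels says that the 2 libraries of a clone came from separate cultures. It therefore compares these 2 isolates and says nothing about clones in general. Among the genes named in what follows, reads of a gene on the other strand cannot be told apart in Alkbh3os1, Arsa, Auts2, Axin2, Cdh18, Cdkn1a, Col4a1, Col4a2, Col18a1, Dlgap1, Ereg, Fggy, Gm13684, Golph3, Hdac9, Htr1b, Igf2bp3, Itgav, Itpkb, Kcnd3, Lamc1, Lrrc7, Med19, Mettl3, Nid2, Npr3, Pax6, Plagl1, Prc1, Prr5l, Sema3e, Sema5a, Spry1, Tagln, Tgfb3, Trim28, Uchl1, Wnt5a and Zdhhc5. The same holds for the rows that join Alkbh3 or Ctnnd1 with other genes. With 1 library of e1 left out, replicate 2, the count was 1697.

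**Figure D1:**
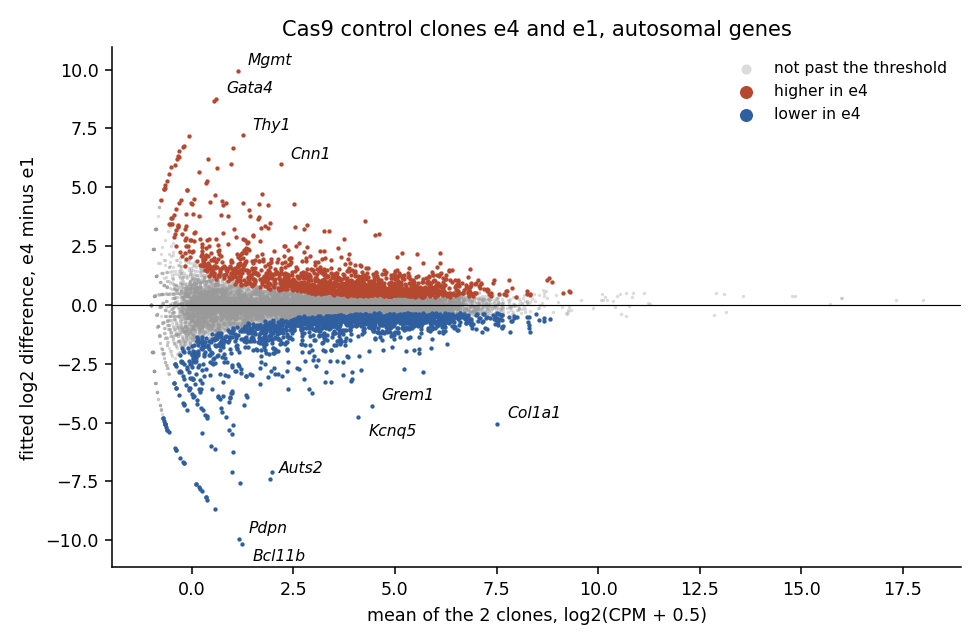
Each point is 1 autosomal gene, with the mean level of both clones on the horizontal axis as log2(CPM + 0.5) and the fitted log2 difference, e4 minus e1, on the vertical axis. Coloured genes passed the adjusted p of 0.05; Mgmt, Gata4, Thy1 and Cnn1 lie at the top, and Bcl11b, Pdpn, Auts2 and Col1a1 at the bottom.

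The sharpest differences were genes with reads in 1 clone and almost none in the other. In e1, 10 genes had 3 or fewer counts over both libraries while e4 had at least 2 CPM, and in e4 the same held for 21 genes. A count of 0 was found for 3 of the 10 and for 9 of the 21. Because these samples are bulk RNA, fewer expressing cells and less RNA per cell cannot be told apart. The fitted log2 values of such genes depend on the prior count of the model, so levels and lower bounds are given in their place.

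Among the genes missing from e1 was Mgmt, the enzyme that removes alkyl groups from guanine in DNA (ENSMUSG00000054612, GRCm38 chr7:136894614-137130266, plus strand). It had 0 CPM in both libraries of e1, 7.26 and 11.2 CPM in e4, and 5.47 and 7.49 CPM in unedited cells. The level in e4 was at least 113-fold higher, with the floor of 3 counts taken over both e1 libraries (edgeR's quasi-likelihood test, adjusted p = 3.29e-08). In e4 its exon bins held 32 counts and its introns 217, and e1 had 0 in each. Gata4, a zinc-finger transcription factor of heart and endoderm, was at 0 CPM in both e1 libraries, 4.27 and 3.94 CPM in e4 and 1.73 and 1.5 CPM in unedited cells, at least 47.8-fold higher in e4. Jakmip2 was at 0 CPM in e1 and at 3.08 and 4.62 CPM in e4, at least 46.9-fold higher. No e1 library overlapped an e4 library for these genes, which largely follows from how they were chosen.

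Of the other genes low in e1, Thy1, a GPI-anchored surface glycoprotein, lay at 0 and 0.104 CPM in e1, 12.4 and 7.47 CPM in e4, and 5.61 and 7.09 CPM in unedited cells (adjusted p = 2.67e-08, edgeR). Ptprb, a receptor tyrosine phosphatase of endothelium, lay at 0.125 and 0 CPM in e1 and 6.46 and 7.20 CPM in e4, against 0.864 and 0.799 CPM in unedited cells. In this gene unedited cells lay between the clones, away from both, whereas for Thy1 they lay close to e4. Npr3, the clearance receptor for natriuretic peptides, and Sema3e, a secreted guidance ligand, were also low in e1. So were Ereg, a ligand of the EGF receptor, and Cd200, an immunoglobulin-family surface protein. The libraries of Npr3, Sema3e, Ereg and Cd200 lay between 0 and 0.104 CPM in e1 and between 1.97 and 4.08 CPM in e4. Cnn1, the smooth muscle protein calponin, was above the count limit in e1 but still 5.97 log2 units higher in e4 (SE 0.28, adjusted p = 2.57e-10, edgeR), from 0.312 and 0.418 CPM to 27.4 and 20.2 CPM.

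Among the genes missing from e4 was Bcl11b, a zinc-finger transcription factor of T cells and cortical neurons (ENSMUSG00000048251, GRCm38 chr12:107910403-108003602, minus strand). It lay at 10.5 and 11.1 CPM in e1 and at 0 CPM in both e4 libraries, at least 89.4-fold lower in e4 (adjusted p = 5.38e-08, edgeR). Unedited cells had 0.576 and 0.300 CPM, so that e1 was the high line and e4 had none. Twist1, a helix-loop-helix factor of mesenchyme, lay at 2.68 and 2.82 CPM in e1, 0 CPM in e4 and 1.44 and 1.40 CPM in unedited cells. Sall3, a zinc-finger factor of the Spalt family, lay at 6.79 and 6.84 CPM in e1 and 0 and 0.0679 CPM in e4.

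Pdpn, the mucin-like glycoprotein podoplanin (GRCm38 chr4:143267431-143299564, minus strand), lay at 10.7 and 8.36 CPM in e1, 0 CPM in both e4 libraries and 19.1 and 7.19 CPM in unedited cells, at least 77.9-fold lower in e4 than in e1. Here e1 lay within the range of the unedited libraries and e4 alone had none. Fbn2, a fibrillin of microfibrils, lay at 3.61 and 4.23 CPM in e1 and 0 CPM in e4. Wasf3, a regulator of actin branching, lay at 9.47 and 9.30 CPM in e1 and 0 and 0.0679 CPM in e4. Auts2, a large gene expressed in the developing brain, was the most abundant of the 21 in e1, at 19.2 and 24.9 CPM, against 0.199 and 0.0679 CPM in e4. Tert, the reverse transcriptase subunit of telomerase, lay at 2.37 and 1.78 CPM in e1, 0 CPM in both e4 libraries and 0.864 and 0.699 CPM in unedited cells, at least 16.9-fold lower in e4. In e1, Bcl11b, Pdpn and Tert had 197, 483 and 66 exon counts and 234, 77 and 36 intron counts. In e4 both were 0, which largely follows from the gene counts of 0, since these cover the whole gene body.

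The promoters of 4 of these genes are printed to show how unlike they are in their CG dinucleotides, which are in capitals. They are 300 bases each, from 250 before to 50 after the start of transcription, 5′ to 3′ on the strand of the gene, from RefSeq on GRCm38.p6. They lie at chr7:136894336-136894635 (Mgmt), chr12:33957421-33957720 (Twist1), chr4:143299515-143299814 (Pdpn) and chr13:73626661-73626960 (Tert).
Mgmt: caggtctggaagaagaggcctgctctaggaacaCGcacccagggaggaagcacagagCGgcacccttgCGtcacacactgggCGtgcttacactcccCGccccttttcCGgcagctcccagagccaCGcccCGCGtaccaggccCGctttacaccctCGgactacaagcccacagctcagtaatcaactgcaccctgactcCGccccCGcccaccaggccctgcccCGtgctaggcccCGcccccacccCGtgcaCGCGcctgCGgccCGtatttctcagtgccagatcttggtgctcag
Twist1: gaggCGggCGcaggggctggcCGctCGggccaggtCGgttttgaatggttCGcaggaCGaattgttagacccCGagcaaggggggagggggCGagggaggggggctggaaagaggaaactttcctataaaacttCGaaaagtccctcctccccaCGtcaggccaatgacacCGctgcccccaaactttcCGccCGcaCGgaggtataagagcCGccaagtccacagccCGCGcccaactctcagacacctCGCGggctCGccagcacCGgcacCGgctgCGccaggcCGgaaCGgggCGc
Pdpn: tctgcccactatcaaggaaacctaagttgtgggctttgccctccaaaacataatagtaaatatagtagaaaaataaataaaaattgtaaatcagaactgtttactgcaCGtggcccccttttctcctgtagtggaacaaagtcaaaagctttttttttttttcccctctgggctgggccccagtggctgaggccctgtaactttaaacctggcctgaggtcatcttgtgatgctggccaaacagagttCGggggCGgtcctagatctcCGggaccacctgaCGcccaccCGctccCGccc
Tert: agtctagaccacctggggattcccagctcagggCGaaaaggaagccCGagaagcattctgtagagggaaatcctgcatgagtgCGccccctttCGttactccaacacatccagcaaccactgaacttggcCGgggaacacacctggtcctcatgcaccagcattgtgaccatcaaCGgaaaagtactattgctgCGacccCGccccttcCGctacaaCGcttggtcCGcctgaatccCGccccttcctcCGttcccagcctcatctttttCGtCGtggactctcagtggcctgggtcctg

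The Twist1 promoter held 27 CG dinucleotides, that of Mgmt 20, that of Tert 15 and that of Pdpn 7. Over 9530 promoters of tested genes the median was 21, and 81.4% held at least 10; CG reads the same on both strands. A promoter was matched for 15 of the 21 genes low in e4, with a median of 19 and 66.7% with at least 10, and for 4 of the 10 low in e1, with a median of 9.5. Genes with many and with few CG dinucleotides were thus among those absent from a clone. No measurement of these sequences in the cells was made.

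**Figure D2:**
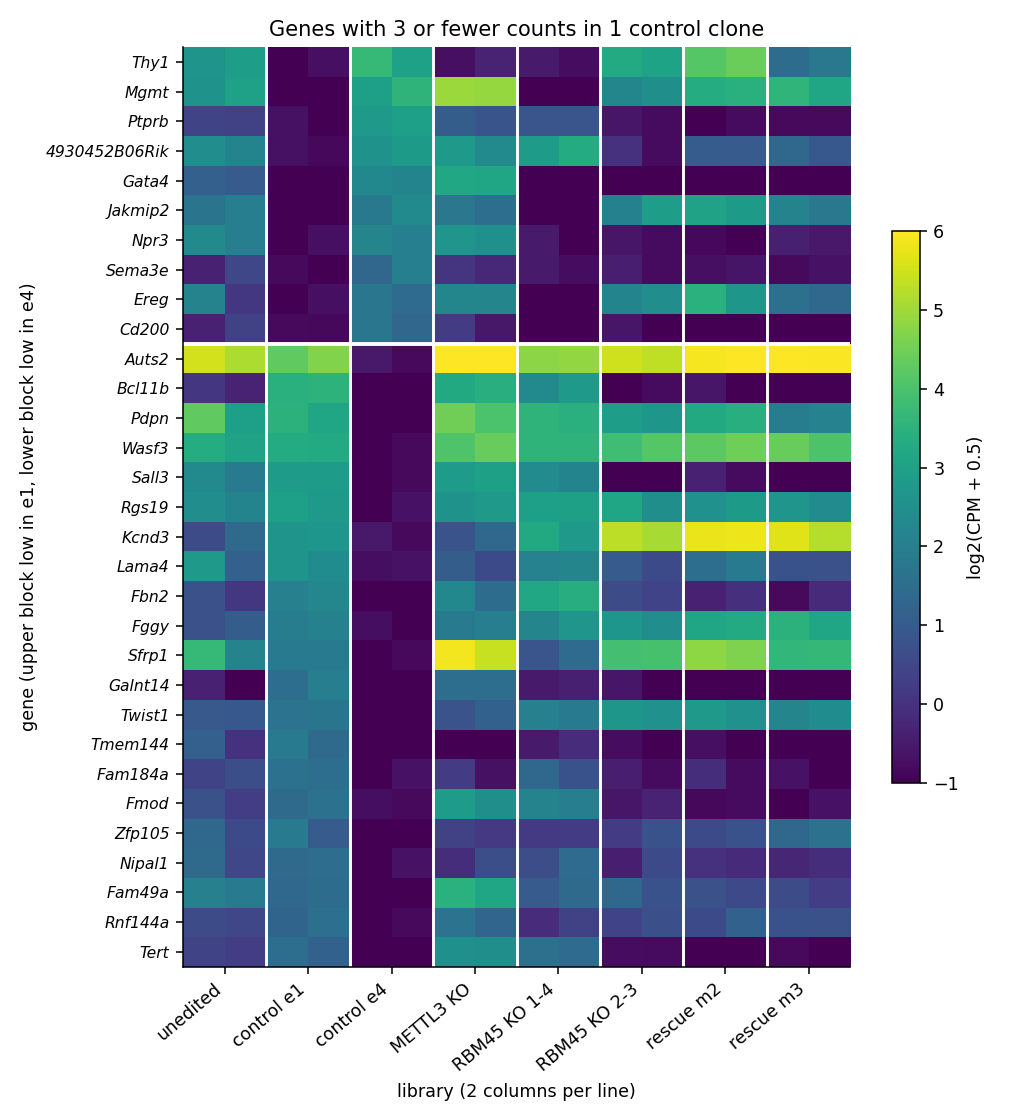
The colour gives log2(CPM + 0.5) of the 31 genes with 3 or fewer counts in 1 control clone, with 1 row per gene and 2 library columns per line. The upper block of 10 genes is dark in both e1 columns and the lower block of 21 in both e4 columns; 8 of the upper genes are also at 3 or fewer counts in RBM45 KO clone 1-4.

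Other lines also lacked some of these genes, and clones of 1 genotype differed in which. Of the 10 genes low in e1, none was at 3 or fewer counts in unedited cells or in METTL3 KO, 8 were in RBM45 KO clone 1-4, and 4 were in RBM45 KO clone 2-3 and in each KO rescue clone. Of the 21 genes low in e4, 1 was at 3 or fewer counts in unedited cells, 1 in METTL3 KO, 0 in RBM45 KO clone 1-4, 5 in clone 2-3, and 5 and 7 in the KO rescue clones. Mgmt was at 0 CPM in clone 1-4, as in e1, and at 4.6 CPM on average in clone 2-3. Gata4 was at 0 CPM in both RBM45 KO clones and both KO rescue clones and at 8.33 CPM in METTL3 KO. Kcnd3, a voltage-gated potassium channel at 0.199 and 0.0679 CPM in e4 and 5.67 and 5.90 CPM in e1, reached 36.5 CPM in clone 2-3 and 55.6 CPM in a KO rescue clone. These counts and means rest on 2 libraries per line, and depth differed between lines.

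Over all 1161 genes called with at least a 2-fold difference, the level of each other line, as log2(CPM + 0.5), was nearer to e1 or to e4. RBM45 KO clone 1-4 was nearer to e1 for 1015 genes (87.4%). Clone 2-3 was nearer to e1 for 62.2%, the KO rescue clones for 65.1% and 64.1%, METTL3 KO for 53.1% and unedited cells for 50.2%. Unedited cells lay between the clones for 847 of the 1161 genes (73.0%), above both for 215 and below both for 99. These shares are descriptions, since the genes were chosen by the difference between e1 and e4.

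Gene lists are described by the members called, to be read against the 9.75% of all genes that were lower in e4, the 9.83% that were higher and the 19.6% called in either direction. Of 26 tested collagen and basement membrane genes, 12 were lower in e4, 4 were higher and 10 did not pass (61.5% called), with a median log2 difference of -0.37 against -0.02 over all tested autosomal genes. Col1a1, a chain of fibrillar type I collagen (GRCm38 chr11, plus strand), lay at 1038 and 1055 CPM in e1, 34.0 and 29.2 CPM in e4 and 89.2 and 121 CPM in unedited cells. The log2 difference was -5.05 (SE 0.19, adjusted p = 2.75e-11, edgeR), and both clones left the level of unedited cells, in opposite directions. Col11a1, of type XI collagen, lay at 91.8 and 97.0 CPM in e1 and at 12.5 and 16.2 CPM in e4, the latter within the range of unedited cells. Nid2 and Lamc1, which code for the basement membrane proteins nidogen 2 and laminin gamma 1, were lower in e4 by 1.79 and 1.17 log2 units. The members higher in e4 were Col4a1 and Col4a2, the main chains of basement membrane collagen, with log2 differences of 1.06 and 0.94, and Col18a1 and Col1a2 with 1.04 and 1.24; these 4 were named after their values were seen. The 2 chains of type I collagen thus moved in opposite directions, Col1a2 from a low level of 2.68 and 1.78 CPM in e1 to 5.47 and 5.03 CPM in e4.

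Of 15 cadherins, 7 were lower in e4 and 1 higher (53.3% called), with a median of -0.56. Cdh11, a cadherin of mesenchyme, lay at 5.67 and 5.07 CPM in e1 and 0.398 and 0.815 CPM in e4 (log2 -3.04, SE 0.33). Cdh18 was the member higher in e4, by 3.37 log2 units. Of 15 integrins, 5 were higher in e4 and 0 lower (33.3% called against 19.6% of all genes). Itga5, the fibronectin receptor chain, lay at 96.6 and 87.7 CPM in e1 and at 186 and 196 CPM in e4, with a log2 difference of 1.05. It lies on chromosome 15, whose median was itself raised in e4, as described further on.

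Mesenchymal and smooth muscle genes went both ways, with 8 of 21 higher in e4, 4 lower and a median of -0.06. Postn, a matrix protein of fibroblasts, lay at 0.623 and 0.627 CPM in e1 and 7.16 and 8.83 CPM in e4 (log2 3.67, SE 0.37, adjusted p = 2.21e-06, edgeR). With Cnn1 and Thy1 it was high in e4, while Twist1, of the same list, had no count there. The contractile genes Acta2, Tpm2, Myl9 and Tagln were higher in e4 by 0.61 to 0.98 log2 units; these were named after their values were seen. Acta2 varied between replicates, with 393 and 271 CPM in e1 and 792 and 518 CPM in e4, but the clones did not overlap.

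Of 27 axon guidance ligands 12 were lower in e4 and 4 higher (59.3% called, against 19.6% of all genes), with a median of -0.39. Sema6a, a transmembrane semaphorin, lay at 26.6 and 29.1 CPM in e1, 2.58 and 3.12 CPM in e4 and 8.78 and 10.1 CPM in unedited cells (log2 -3.27, SE 0.17, adjusted p = 6.07e-10, edgeR). Sema5a and Sema7a were lower in e4 by 2.36 and 1.92 log2 units, and Sema3e was higher. Of 21 receptors, 7 were lower and 4 higher (52.4% called). Ephb2, an ephrin receptor, was lower by 2.19 log2 units, and Ephb6, a relative without kinase activity, was higher by 2.06. The plexins Plxnd1 and Plxnb2, receptors of semaphorins, were higher in e4 by 1.26 and 1.04 log2 units. Plxnb2 lies on chromosome 15, whose median was itself raised in e4. An alternative described further on, chosen after seeing the data, took out each chromosome's median. Under it 5 of the 21 receptors were lower and 3 higher.

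Of 21 synapse organizers and neurotransmitter receptors, 7 were lower in e4 and 1 was higher (38.1% called), and of 19 voltage-gated channels 6 were lower and 1 was higher (36.8% called). Kcnq5, a potassium channel of the M current, lay at 56.0 and 108 CPM in e1, 3.38 and 2.78 CPM in e4 and 36.4 and 27.0 CPM in unedited cells. Its log2 difference was -4.75 (SE 0.30, adjusted p = 6.90e-09, edgeR). Dlgap1, a scaffold of excitatory synapses, lay at 72.7 and 99.9 CPM in e1 and 20.5 and 24.6 CPM in e4. Htr1b, a serotonin receptor, was lower by 2.01 log2 units. Of 9 tested genes of neuronal maturity 4 were lower and 0 higher. Uchl1, a ubiquitin hydrolase of neurons, lay at 19.6 and 19.7 CPM in e1 and 7.55 and 6.99 CPM in e4.

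Of 19 neural lineage factors 7 were lower and 2 higher (47.4% called), with a median of -0.13. Sox2, a factor of neural stem cells, lay at 33.3 and 32.5 CPM in e1 and 22.4 and 19.4 CPM in e4 (log2 -0.66, SE 0.14). Pax6, a factor of cortical progenitors, lay at 10.8 and 10.4 CPM in e1 and 19 and 18.4 CPM in e4 (log2 0.82, SE 0.14) and lies in the chromosome 2 segment described further on. Slc1a3, a glutamate transporter of astrocytes, was the 1 astrocyte gene of 5 to pass, at 2.37 and 1.51 CPM in e1 and 16 and 24.5 CPM in e4. Of 7 microglial and endothelial genes, 1 passed, Tmem119, lower in e4 by 1.65 log2 units, and of 3 oligodendrocyte genes 0 passed.

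**Figure D3:**
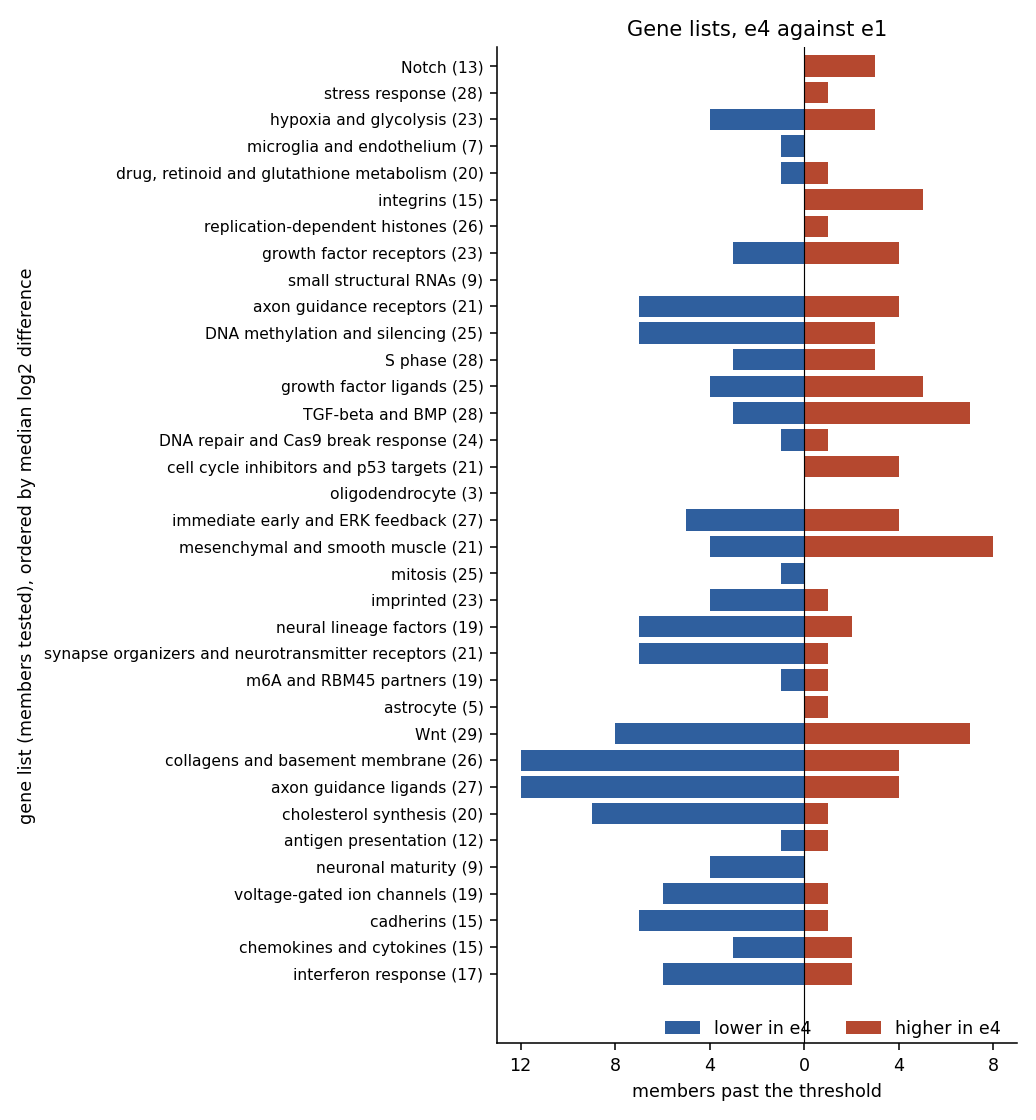
Bars show how many tested members of each gene list passed the adjusted p of 0.05, lower in e4 to the left and higher in e4 to the right, with the number tested in brackets and lists ordered by median log2 difference. Collagens and guidance ligands each have 12 members lower in e4, whereas mitosis has 1 and the small structural RNAs 0.

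Signalling genes were called in both directions. Of 29 Wnt genes, 8 were lower and 7 higher in e4 (51.7% called). After chromosome medians were taken out, 5 were lower and 4 higher. Axin2, a feedback inhibitor and common target of the pathway, lay at 3.92 and 3.19 CPM in e1 and 0.298 and 0.0679 CPM in e4 (log2 -4.37, SE 0.48). The ligand Wnt5a and the receptor Fzd1 were lower by 2.01 and 1.11 log2 units, and the co-receptor Lrp5 was higher by 1.22. Of 28 TGF-beta and BMP genes, 7 were higher and 3 lower (35.7% called). Grem1, a secreted BMP antagonist, lay at 79.6 and 105 CPM in e1, 2.78 and 6.32 CPM in e4 and 45.3 and 30.8 CPM in unedited cells (log2 -4.28, SE 0.33, adjusted p = 7.06e-08, edgeR). The ligand Tgfb3, the receptor Acvr1b and the procollagen protease Bmp1 were higher by 1.18, 1.15 and 0.86 log2 units.

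Among 25 growth factor ligands 5 were higher and 4 lower. Gdnf, a neurotrophic factor that signals through Ret, lay at 4.99 and 4.70 CPM in e1, 30.3 and 36.3 CPM in e4 and 14.2 and 19.6 CPM in unedited cells (log2 2.79, SE 0.16, adjusted p = 2.52e-09, edgeR). Ptn, the heparin-binding factor pleiotrophin, was lower by 3.88 log2 units from 1.68 and 0.992 CPM in e1. Of 23 growth factor receptors 4 were higher and 3 lower, among them Axl at -0.56 and Pdgfrb at -0.61. Axl lies on chromosome 7, whose median was itself lower in e4. After chromosome medians were taken out, 2 of the 23 were higher and 1 was lower. Of 13 Notch genes 3 were higher and 0 lower, with a median of 0.49, and the ligand Jag1 was higher by 0.81.

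Interferon response genes had the lowest median of the lists, -1.38, with 6 of 17 lower and 2 higher. Their levels were low: Bst2, an antiviral membrane tether, lay at 8.16 and 5.59 CPM in e1 and 1.99 and 1.43 CPM in e4, while unedited cells held 13.4 and 4.09 CPM. Ifi27 went the other way, from 1.06 and 0.522 CPM in e1 to 5.57 and 2.65 CPM in e4. The 2 unedited libraries thus lay far apart for Bst2, so its level also varied between libraries of 1 line. Of 15 chemokines and cytokines 3 were lower and 2 higher, among them Cxcl12, a chemokine of stromal cells, higher in e4 by 1.19 log2 units. Of 12 antigen presentation genes, 1 was lower and 1 higher.

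Cholesterol synthesis genes were lower in e4 in 9 of 20 cases and higher in 1, with a median of -0.43. Hsd17b7, a reductase of the later steps of the pathway, was lower by 1.02 log2 units (SE 0.15). Sqle, squalene epoxidase, was the exception, higher by 0.83, and lies on chromosome 15. With each chromosome's median taken out, an alternative chosen after seeing the data, 7 of the 20 were lower and 0 higher, so that Sqle no longer passed.

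Of 25 mitosis genes 1 was lower (Prc1, log2 -0.59) and 0 were higher, and of 28 S phase genes 3 were lower and 3 higher (21.4% called, near the 19.6% of all genes). Rrm1, a subunit of ribonucleotide reductase, was lower by 0.70 log2 units. Prc1 and Rrm1 lie on chromosome 7, and with chromosome medians taken out no gene of either list passed. Of 21 cell cycle inhibitors and p53 targets 4 were higher and 0 lower (19% called, also near that share). Cdkn1a, the inhibitor p21, lay at 2.24 and 2.56 CPM in e1, 8.15 and 10.2 CPM in e4 and 26.8 and 9.79 CPM in unedited cells. With chromosome medians taken out, 3 of these 21 genes were higher and 2 were lower. Of 26 replication-dependent histone genes 1 passed, of 28 stress response genes 1 and of 9 small structural RNAs 0; these shares lie below the 19.6% of all genes.

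Among 25 genes of DNA methylation and silencing 7 were lower in e4 and 3 higher. Tet1, which oxidises methylated cytosine, lay at 1.68 and 1.72 CPM in e1 and 0.0994 and 0.272 CPM in e4 (log2 -3.03, SE 0.59). Hdac9, a histone deacetylase, was lower by 1.43 log2 units and Ezh1, a histone methyltransferase, higher by 1.01. Trim28, a co-repressor, was lower by 0.77 and lies on chromosome 7. With chromosome medians taken out, 2 were lower and 3 higher. Of 24 genes of DNA repair and the response to DNA breaks, Mgmt was higher and Xrcc5, which codes for Ku80 of end joining, was lower by 0.69 log2 units, and 22 did not pass. Among 23 imprinted genes 4 were lower and 1 higher (21.7% called), a share near that of all genes; Plagl1, a zinc-finger factor, lay at 3.99 and 4.33 CPM in e1 and 0.497 and 0.204 CPM in e4.

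The genes that the series edited differed little between the control clones. Rbm45 lay at 16 and 16.7 CPM in e1, 12.8 and 13.4 CPM in e4 and 11.1 and 14.2 CPM in unedited cells, and its log2 difference of -0.32 (SE 0.17) had an adjusted p of 0.214 (edgeR). Mettl3 lay at 9.60 and 8.88 CPM in e1 and 10.4 and 8.28 CPM in e4, which overlap. Of 19 tested m6A factors and RBM45 partners, Igf2bp3, an m6A reader, was higher in e4 by 1.99 log2 units, 1 was lower and 17 did not pass.

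In the remaining lists the members that passed were divided between directions. Of 27 immediate early and ERK feedback genes 5 were lower and 4 higher, with Spry1, an inhibitor of ERK signalling, lower by 2.74 log2 units. Of 23 hypoxia and glycolysis genes 4 were lower and 3 higher. After chromosome medians were taken out, 1 of these 23 was lower and 1 higher. Of the 27 immediate early and ERK feedback genes 2 were then lower and 2 higher. Of 20 genes of drug, retinoid and glutathione metabolism 1 was lower and 1 higher. No gene of the epithelial and Hox lists passed the filter on low counts.

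The differences were not spread evenly over the chromosomes. The median log2 difference of all 15750 genes was -0.02, but that of the 1214 genes of chromosome 7 was -0.54 and that of the 637 genes of chromosome 15 was 0.46. On chromosome 7, 448 genes (36.9%) were lower in e4 and 15 (1.24%) higher. On chromosome 15, 263 genes (41.3%) were higher and 15 (2.36%) lower. The shares over all autosomes were 9.83% higher and 9.75% lower. Smaller shifts were found up on chromosomes 19 (0.32), 8 (0.27), 17 (0.27) and 6 (0.25) and down on chromosome 1 (-0.24), and the other 12 chromosomes had medians between -0.17 and 0.13.

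Each pair of libraries gave the same shift for chromosomes 7 and 15. Over genes of at least 5 CPM, the median on chromosome 7 was -0.49 and -0.40 for e4 replicate 1 against e1 replicates 1 and 2, and -0.58 and -0.53 for e4 replicate 2. On chromosome 15 the 4 pairs gave 0.49, 0.57, 0.40 and 0.47. Between replicates of 1 clone the medians of the 19 autosomes lay between -0.11 and 0.13. Counted on exon bins alone, the medians were -0.55 on chromosome 7 and 0.48 on chromosome 15, and on introns alone -0.56 and 0.54. The whole length of chromosome 7 took part: in windows of 25 neighbouring tested genes, all 48 windows had a median below 0, from -0.87 to -0.19.

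**Figure D4:**
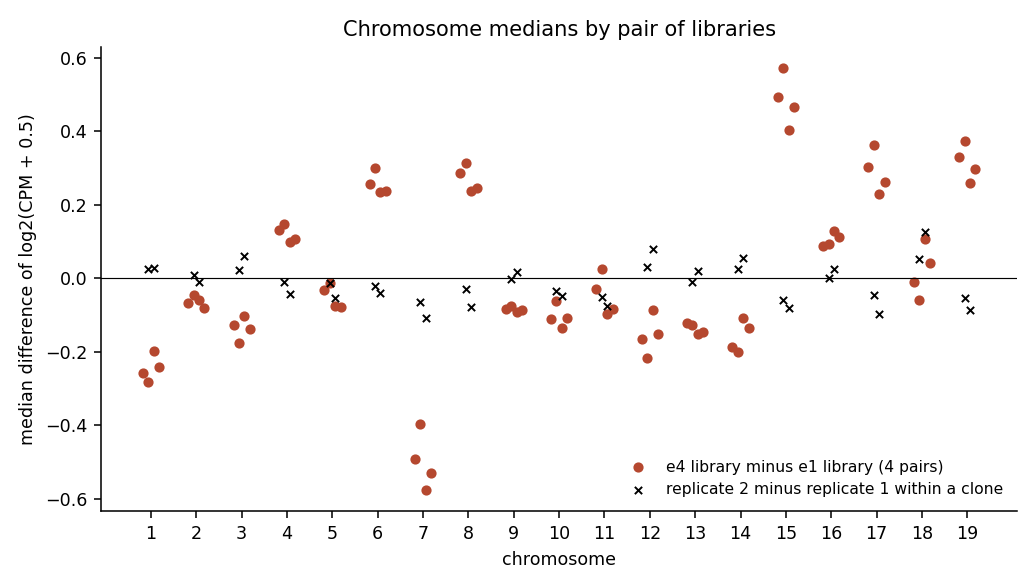
Filled points give the median difference of log2(CPM + 0.5) over genes of at least 5 CPM for each of the 4 pairs of an e4 and an e1 library, by chromosome, and crosses give replicate 2 minus replicate 1 within each clone. Chromosome 7 lies between -0.58 and -0.40 and chromosome 15 between 0.40 and 0.57, outside the crosses, which lie between -0.11 and 0.13.

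Set against unedited cells, which e1 and e4 share as the reference, the clones contributed unequally. On chromosome 7 the median of e4 minus unedited cells was -0.49 and that of e1 was -0.01. On chromosome 15 the medians were 0.28 for e4 and -0.21 for e1. On chromosome 1 both were raised, 0.21 for e4 and 0.49 for e1. RBM45 KO clone 1-4 had 0.08 on chromosome 7, -0.17 on chromosome 15 and 0.45 on chromosome 1, and METTL3 KO had -0.16, -0.14 and 0.10. RBM45 KO clone 2-3 had 0.12, -0.27 and -0.05 on these chromosomes. The KO rescue clones had 0.06 and 0.06 on chromosome 7, -0.30 and -0.34 on chromosome 15, and -0.06 and -0.06 on chromosome 1. The shift of chromosome 7 was thus largest in e4 among these lines, and on chromosome 15 only e4 lay above unedited cells. Chromosome medians are relative to the scaling of whole libraries, and what sets them was not tested.

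Taking each chromosome's median out of the e4 libraries as an offset in the model left 1852 autosomal genes past the threshold, of which 1615 were among the 3084. Under this alternative, chosen after seeing the data, chromosome 7 had 102 calls (8.40% of its genes), 61 of them also called without the offset, and chromosome 15 had 157 (24.6%), 116 of them also called without it. Off these chromosomes, 2343 of 13899 genes (16.9%) passed without the offset, so most calls lay elsewhere. All 38 genes with the largest differences or with 3 or fewer counts in a clone passed with the offset as well.

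A block of neighbouring genes on chromosome 2 stood out from its surroundings. In the 100 tested genes from 84722104 to 105904564 (GRCm38) the median log2 difference was 0.85, and 72 genes were higher in e4 against 2 lower. The 4 windows of 25 genes in this block had medians between 0.82 and 0.95, the window before had 0.05 and the window after had -0.09. The 4 pairs of libraries gave 0.74 to 0.94 over genes of at least 5 CPM. The exon bins gave 0.83 and the introns 0.89. Among rows of a single gene, those with the smallest p in the block were Alkbh3os1, Prr5l, Madd, a regulator of Rab GTPases, and Rcn1, a calcium-binding protein of the endoplasmic reticulum. A row that joins Alkbh3 with 2 overlapping genes had a smaller p, with a log2 difference of 4.27 (SE 0.25, adjusted p = 3.22e-09, edgeR). Madd lay at 2.99 and 2.30 CPM in e1 and 8.35 and 9.10 CPM in e4, and Rcn1 at 8.79 and 8.41 CPM in e1 and 19.9 and 18.3 CPM in e4.

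The edges of the chromosome 2 block were read from neighbouring genes, chosen after their values were seen. Upstream, a row that joins Ctnnd1 and Tmx2 with another and starts at 84600071 (log2 0.91), Selenoh (1.26), Med19 (0.87) and Zdhhc5 (0.91) were already higher in e4. The next tested row upstream, a gene without a symbol from 84576551 to 84592840, had -0.007 and did not pass. Further upstream the picture was mixed. Gm13684 (0.55), which lies within Itgav on the other strand, and Fam171b (0.67), which starts at 83812636, also passed. Itgav, at 83724397, had a log2 difference of 0.12 and did not. Downstream, Immp1l (0.87) and Dnajc24 (1.13), which ends at 106003549, were higher in e4, and the next tested gene, Arl14ep at 106962527, had -0.22 and did not pass. Against unedited cells the block had a median of 0.40 in e4 and -0.43 in e1. In the other lines it was -0.38 in RBM45 KO clone 1-4, 0.61 in clone 2-3, 0.56 and 0.60 in the KO rescue clones and 0.31 in METTL3 KO. Lines of the same genotype, such as both RBM45 KO clones, therefore lay on opposite sides of unedited cells.

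Chromosome 15 was raised unevenly. The 50 genes from 3217391 to 12351591 had a median of 1.00, with 37 higher in e4 and 0 lower, among them Gdnf, Slc1a3, Npr3 and Golph3, a Golgi protein at 36.9 and 36.9 CPM in e1 and 88.1 and 85.2 CPM in e4. The next 25 genes, up to 28025848, had a median of -0.05. The 25 genes from 56689944 to 60853778 had the highest median, 1.25, with 21 higher and 0 lower. Derl1, a protein of the degradation pathway of the endoplasmic reticulum, lay there at 24.1 and 22.8 CPM in e1 and 75.6 and 63.3 CPM in e4, and Washc5, a subunit of the WASH complex, at 72.7 and 63.1 CPM in e1 and 210 and 181 CPM in e4. The 25 genes from 89075124 to 93234700 had a median of 1.05, with 18 higher and 0 lower, among them Sbf1 and Arsa, the lysosomal arylsulfatase A. Against unedited cells these 3 stretches had medians of 0.54 to 0.62 in e4 and -0.57 to -0.38 in e1, so the clones lay on opposite sides.

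Chromosome 16 changed sign along its length. The first 11 windows, 275 genes up to 35871544, had a median of 0.28 with 61 genes higher and 9 lower, and the remaining 209 genes had a median of -0.19 with 9 higher and 23 lower. The point of division was chosen after seeing the windows. Over genes of at least 5 CPM the 4 pairs gave 0.26 to 0.30 for the first part and -0.24 to -0.14 for the second. Single windows that departed by at least 0.4 from their chromosome's median were also found on chromosomes 1 (-0.68), 3 (0.36) and 16 (0.57). In that of chromosome 1, 8 of the 25 genes were lower and 1 was higher; in that of chromosome 3, 4 were higher and 1 was lower, its library pairs ran from 0.02 to 0.39, and its intron median had the opposite sign (-0.28).

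**Figure D5:**
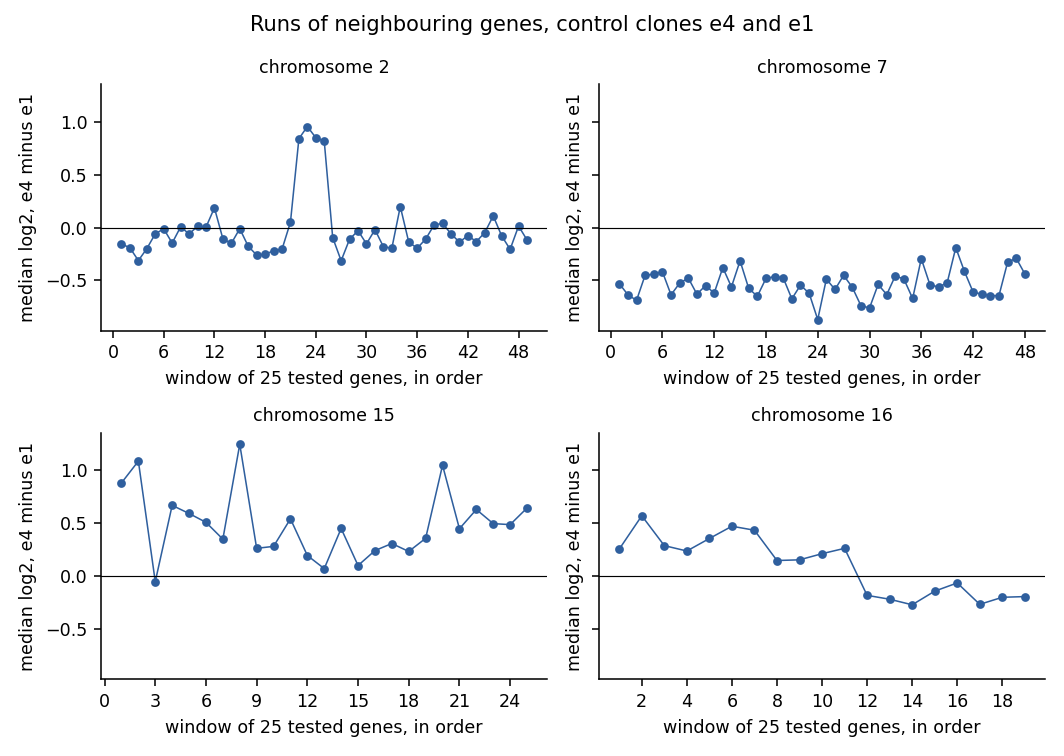
Each point is the median log2 difference, e4 minus e1, of 25 neighbouring tested genes (up to 39 in a last window), in order along chromosomes 2, 7, 15 and 16. Chromosome 2 has 4 windows near 0.85 between windows near 0, chromosome 7 lies below 0 throughout, and chromosome 16 changes from above to below 0 after window 11.

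Both control clones also differed from unedited cells. Clone e1 differed in 1918 genes (12.2%) and e4 in 1746 (11.1%), by the same test; the comparisons share the unedited libraries. Of the 3084 genes called between the clones, 758 differed from unedited cells only in e1, 749 only in e4 and 224 in both, 140 of these in opposite directions, while 1353 passed in neither; passing in 1 clone only does not itself show that the clones differ. The unedited libraries were the shallowest of the 6, with 8179597 and 10285840 counts, and without unedited replicate 1 the counts were 820 for e1 and 595 for e4. Of the 15 genes with the largest rise in e4 relative to e1, all 15 lay further from unedited cells in e1 than in e4. Of the 15 with the largest fall, 14 lay further from unedited cells in e4. In 29 of these 30 genes the clone with the low level was thus the one further from unedited cells on the log2 scale, where a level near 0 gives the larger distance.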

How the data were processed

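Ribodepleted total RNA of 16 mouse mHiPPoE-2 samples was sequenced with a non-directional kit, per the labels' protocols. The submitters' processing notes name HISAT2 2.1.0 and the build mm10. The authors deposited raw counts of fragments per gene body (introns included), exon bin and intron, made by featureCounts 1.6.3 with a strand setting and an Ensembl 98 annotation, per the file headers. As the kit does not mark strand, reads of overlapping genes on opposite strands cannot be told apart; this concerns 16474 rows, and 1397 rows join overlapping genes. The summary file of the gene table, whose deposited fragment counts give 31.0% to 35.7% unmapped fragments in the control libraries, was used only for that share.

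The 16 libraries in 8 lines were fitted together (16223 genes after filterByExpr, TMM scaling, 8 residual degrees of freedom) with the quasi-likelihood test of edgeR 4.0.16. P-values were adjusted by Benjamini-Hochberg over all tested genes, X and Y included. The standard error (SE) is the log2 difference divided by the square root of the F statistic. Levels are CPM over TMM-scaled library sizes. The fit was tested on simulated data with planted changes, and recovery of 2-fold changes was partial. Alternatives were DESeq2 1.42.0, RLE size factors, no filter, the 4 control libraries alone, exon or intron counts, a replicate block, leaving out libraries and leaving out the most abundant genes. Counts are fragments without molecular identifiers, so floors cover counting error only.

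Named genes are, in each direction, the 15 largest differences among called genes of at least 2 CPM whose libraries do not overlap, called genes with 3 or fewer counts in a clone, up to 4 called members with the smallest p in each of 37 lists and in each described stretch of genes, and Rbm45 and Mettl3. Members and lists were chosen with earlier results of these data known. Gene lists count only genes with a row of their own. Symbols are from GENCODE mouse release 21, which matched 53152 of 53333 rows, and promoters are from RefSeq. Some genes that the rule would name are not reported here.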

Additional observations from a re-analysis of the deposited data

Results flagged for a closer look

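In 14 of the 38 genes with the largest differences or with 3 or fewer counts in a clone, e1 and e4 departed from unedited cells in opposite directions. Each departure was past the adjusted p of 0.05. All 38 were chosen among genes past the threshold between e4 and e1. Over all 15750 autosomal genes tested, 140 departed in opposite directions. All 3 comparisons use edgeR's quasi-likelihood test, and those against unedited cells share its 2 libraries. The fitted log2 differences, e4 minus e1, depend on the prior count where a clone had no reads. High in e1 and low in e4 relative to unedited cells were Bcl11b (-10.15), Fbn2 (-8.69), Twist1 (-8.18), Tert (-7.76), Lrrc7, a synaptic scaffold gene (-7.12), Sall3 (-7.10), Fggy (-6.14), Kcnd3 (-5.47) and Fmod, which codes for the matrix protein fibromodulin (-4.72). High in e4 and low in e1 were Gata4 (8.75), Ptprb (6.69), Sema3e (6.22), Cnn1 (5.97) and Itpkb, an inositol trisphosphate kinase (4.71). What sets these differences was not tested.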

How the results depend on the processing

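The 38 genes with the largest differences or with 3 or fewer counts in a clone kept their direction and passed in every alternative that gave them a value (33 under DESeq2 and 30 on introns). The 3084 calls between the clones fell to 1630 with the 4 control libraries alone, to 1319 on introns, where 9822 genes were tested, and to 1852 with chromosome medians taken out. Leaving out 1 control library gave 1697 to 2908 calls, lowest without e1 replicate 2. Calls of e1 against unedited cells ran from 766 (without e1 replicate 2) to 2254, and those of e4 from 595 (without unedited replicate 1) to 2155; without e4 replicate 2 they were 884. The 216 called genes of the lists were 110 on introns and 150 to 192 without 1 library. The chromosome 7 median ran from -0.58 to -0.49 without 1 library and was -0.45 with no filter on low counts. The chromosome 15 median ran from 0.45 to 0.50, was 0.54 on introns and 0.35 with no filter. The median of the chromosome 2 block ran from 0.82 to 0.95. With the replicate block the calls between the clones were 3323. The clones share only the numbers 1 and 2, and the correlation across genes of replicate 1 minus replicate 2 between them was 0.365. Where 1 library of a clone was left out, the lone library is assumed to vary like the other lines.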
